A study of Mus musculus with 10 samples.

Results

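Livers exposed to both a Western diet and carbon tetrachloride (CCl4) were compared with livers from a normal diet and the oil vehicle, in a table of normalised read counts from RNA sequencing. CCl4 is a solvent that the hepatocyte enzyme Cyp2e1 turns into a reactive radical. The exposed group is called the joint pools here and consists of 1 pool after 12 weeks and 1 pool after 24 weeks of Western diet with CCl4. The group without either exposure is called the unexposed pools and consists of 1 pool after 12 weeks and 1 pool after 24 weeks of normal diet with oil. Each library was made from liver tissue pooled from 4 mice, so 4 of the 10 libraries of the study form the comparison and every library of one duration faces 1 library of the same duration. The study also holds pools of the same 2 durations labelled normal diet with CCl4 and Western diet with oil, and 2 tumours, each from 1 mouse, taken after 24 weeks of the joint exposure. The labels used here give no strain, sex, age, CCl4 dose, diet composition or hour of collection. A gene was described where 2 or more of the 10 libraries reached a value of 1, which left 12648 of the 24062 genes in the table.

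In liver injury of this kind, dying hepatocytes call in monocytes, which become macrophages, and hepatic stellate cells turn into myofibroblasts that lay down collagen. Hepatocytes meanwhile handle an excess of sterol and fat through the sterol-regulated factor SREBP2, the lipogenic factor SREBP1 and nuclear receptors, and they lose part of their specialised output of drug-metabolising enzymes and plasma proteins. In mice a large share of that output is sex-biased and follows the rhythm of growth hormone.

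Library totals, recovered as whole reads from the table, ran from 24082712 to 29491139 reads in the 4 pools compared. Values are normalised read counts, given in the order 12 and 24 weeks, with the unexposed pools before the joint pools. A change is the difference in log2(value + 1) between joint and unexposed pools, averaged over both durations, with its standard error from a limma fit over the 8 liver pools, n = 2 pools against 2. This scale understates the change of genes with low values. A gene was called where the p-value adjusted by Benjamini-Hochberg over the 12648 genes was below 0.05. The spread behind each p-value is that between pools of 12 and 24 weeks after a shift shared by all pools is taken out, not that between animals. The 2 remaining liver groups entered the fit only for that spread, and they were taken as labelled. In them the pools labelled normal diet with CCl4 carried the low sterol synthesis and high lipid droplet values, with squalene epoxidase (Sqle) at 8.11 and 6.86 and the droplet gene Cidec at 154 and 206, whereas the pools labelled Western diet with oil read 106 and 139 for Sqle and 2.52 and 1.85 for Cidec. Conversely the pericentral gene Glul, which marks the zone that CCl4 injures, read 1373 and 1185 in the pools labelled normal diet with CCl4 and 387 and 474 in those labelled Western diet with oil. Each of these groups has a mean of its own in the fit, so exchanging their names would not alter any value of the joint comparison.

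The joint exposure went with a change in 3278 genes, 25.9% of those tested. Of these, 1984 (15.7% of tested genes) were higher and 1294 (10.2%) were lower in the joint pools, and 1056 of the higher and 237 of the lower genes differed by at least 2-fold. Rises were the more common among genes with low values and falls among genes with high values. Among the 3162 genes with the lowest mean values, 26.2% were called higher and 3.10% lower, and among the 3162 with the highest 7.15% were called higher and 23.1% lower. Of the genes called higher, 356 read under 1 in both unexposed pools. Such genes could pass the filter only through libraries other than the unexposed pools, which favours rises. Gpnmb, Mmp12, Mmp7, Eda2r, Oas3 and Cyp2b9, described below, are among them. The 4 pools did not overlap between the groups in 3268 of the called genes and in 7977 of all tested genes. The balance of rises and falls rested on the scaling of the libraries. With recovered reads scaled to the library totals in place of the deposited values, the median change of all genes moved from -0.02 to 0.23 and the calls from 1984 higher and 1294 lower to 3166 higher and 439 lower. Without the unexposed pool of 24 weeks 850 genes were called higher and 364 lower, and without the joint pool of 24 weeks 1138 and 531. The genes called lower numbered 743 and 744 without the pools of 12 and of 24 weeks labelled Western diet with oil.

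**Figure D1:**
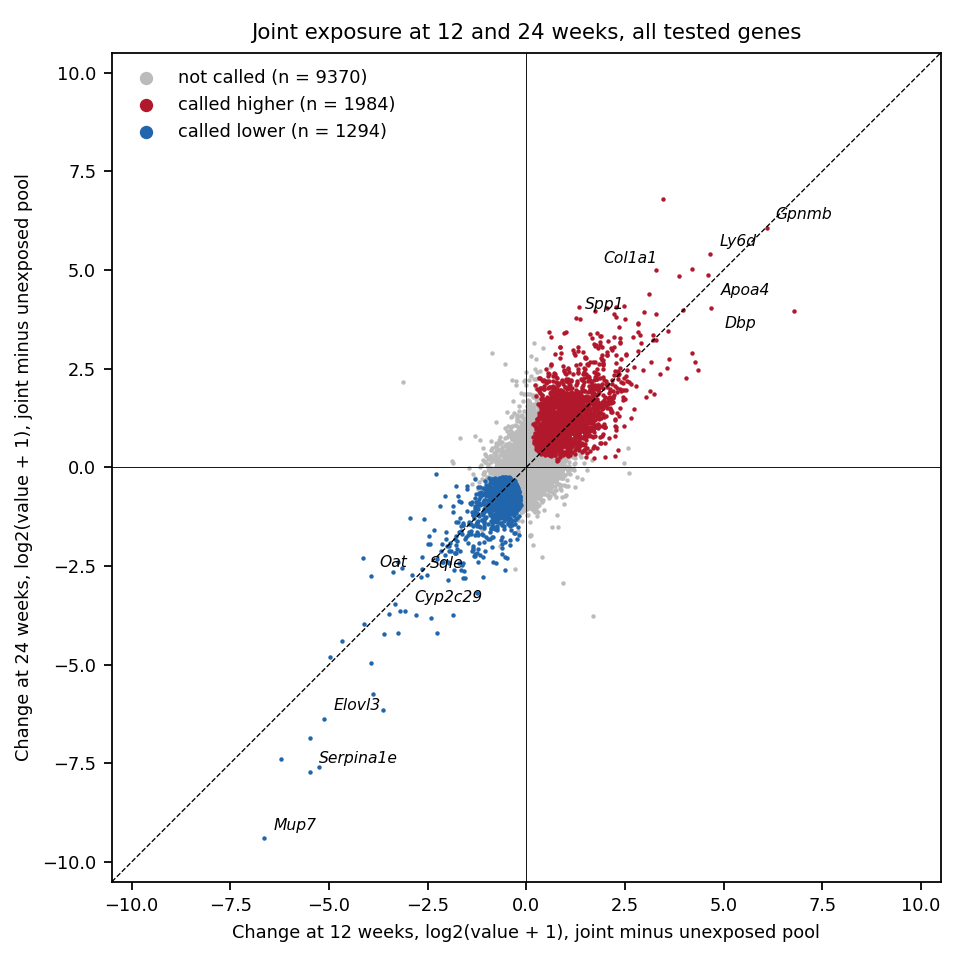
Change of each tested gene in log2(value + 1), joint minus unexposed pool, at 12 weeks on the horizontal axis and at 24 weeks on the vertical axis, with 1984 genes called higher in red, 1294 called lower in blue and the rest in grey. Gpnmb, Col1a1 and Apoa4 lie at the upper right and Mup7, Serpina1e and Elovl3 at the lower left, so that they moved the same way at both durations.

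Type I and type III collagen genes were among the largest rises. Col1a1, which encodes the main chain of type I collagen (chromosome 11, 94936224 to 94953042, GRCm38), read 4.92 and 5.90 in the unexposed and 86 and 196 in the joint pools, a rise of 4.36 ± 0.27 (adjusted p = 4.7e-05). Its partner Col1a2 (chromosome 6, 4504814 to 4541544) went from 11.4 and 8.33 to 106 and 195 and the type III gene Col3a1 (chromosome 1, 45311538 to 45349706) from 23.5 and 24.2 to 238 and 372. For these 3 genes both joint pools stood above both unexposed pools, and the joint pool of 24 weeks read higher than that of 12 weeks. The groups did not overlap in 3268 of the 3278 called genes. Of 22 tested collagen genes 16 were called higher and 1 lower, with a median change of 1.73 against -0.02 over all tested genes. The beaded-filament chain Col6a3 rose by 3.04 ± 0.32 and the basement membrane chain Col4a1 by 2.08 ± 0.26. Col27a1 was the member that fell (-0.47 ± 0.15). In bulk tissue, more cells of a type and more RNA per cell cannot be told apart. Of the genes named here, the call was lost for Col27a1 without any 1 pool other than the unexposed pool of 12 weeks or the pool of 24 weeks labelled normal diet with CCl4.

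Most genes for proteins that bind, cross-link or cut collagen rose as well. Of 45 tested genes for matrix glycoproteins, proteoglycans and cross-linking enzymes, 37 were called higher and 2 lower, with a median of 1.45. Lumican (Lum), a proteoglycan that spaces collagen fibrils, went from 6.08 and 7.41 to 51.3 and 84.3 (rise 3.11 ± 0.20, adjusted p = 5.31e-05). The latent TGF-beta binding protein Ltbp2 rose by 2.86 ± 0.46, thrombospondin 2 (Thbs2) by 2.70 ± 0.26 and Sparcl1 by 2.60 ± 0.39. Plasma and cellular fibronectin share 1 gene, Fn1, which hepatocytes also express, and it read 1375 and 825 against 1074 and 1084 with overlapping groups. Of 24 matrix proteases and inhibitors 18 rose and 0 fell. The macrophage elastase Mmp12 went from 0.399 and 0.640 to 24.9 and 52.3 (rise 4.62 ± 0.31, adjusted p = 7.77e-05), and gelatinase A (Mmp2) went from 3.24 and 2.61 to 29.2 and 44. The membrane protease Adam8 rose by 3.13 ± 0.31 and matrilysin (Mmp7) by 2.70 ± 0.54, the latter from 0.0444 and 0.183 to 1.65 and 18.6. Among the glycoprotein genes 20 and among the protease genes 10 were called higher without the unexposed pool of 24 weeks. The call did not hold for Mmp7 without the unexposed pool of 24 weeks.

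Most markers of the cells that make scar tissue rose. Of 26 stellate cell and myofibroblast markers 20 rose and 1 fell, with a median of 0.97, and of 11 markers of portal fibroblasts and mesothelium 7 rose and 0 fell. The platelet-derived growth factor receptor Pdgfrb read 5.99 and 5.44 in the unexposed and 19.5 and 38.4 in the joint pools, a rise of 2.08 ± 0.23 (adjusted p = 0.000554). Periostin (Postn), a matrix protein of activated fibroblasts, rose by 2.28 ± 0.25 and vimentin (Vim), an intermediate filament of mesenchymal cells and leukocytes, by 1.88 ± 0.15. The smooth muscle actin gene Acta2, the usual mark of a myofibroblast, read 2.0 and 2.29 against 3.34 and 5.89 (difference 0.80 ± 0.28, adjusted p = 0.0676) and was not called, although both joint pools stood above both unexposed pools. Among portal fibroblast markers, dermatopontin (Dpt) rose by 2.44 ± 0.28 and elastin (Eln) by 2.14 ± 0.29. The mesothelial marker Msln read 2.13 and 1.65 against 1.84 and 1.21 and was not called, with overlap. Of 26 genes of TGF-beta and PDGF signalling 18 rose and 0 fell. Of 23 integrins and adhesion molecules 16 rose and 0 fell, with the leukocyte ligand Vcam1 up by 2.37 ± 0.21 and the stellate cell integrin Itga8 by 2.05 ± 0.34. Counts of risen stellate and TGF-beta genes were 10 and 7 without the unexposed pool of 24 weeks and 12 and 7 without the joint pool of 24 weeks.

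**Figure D2:**
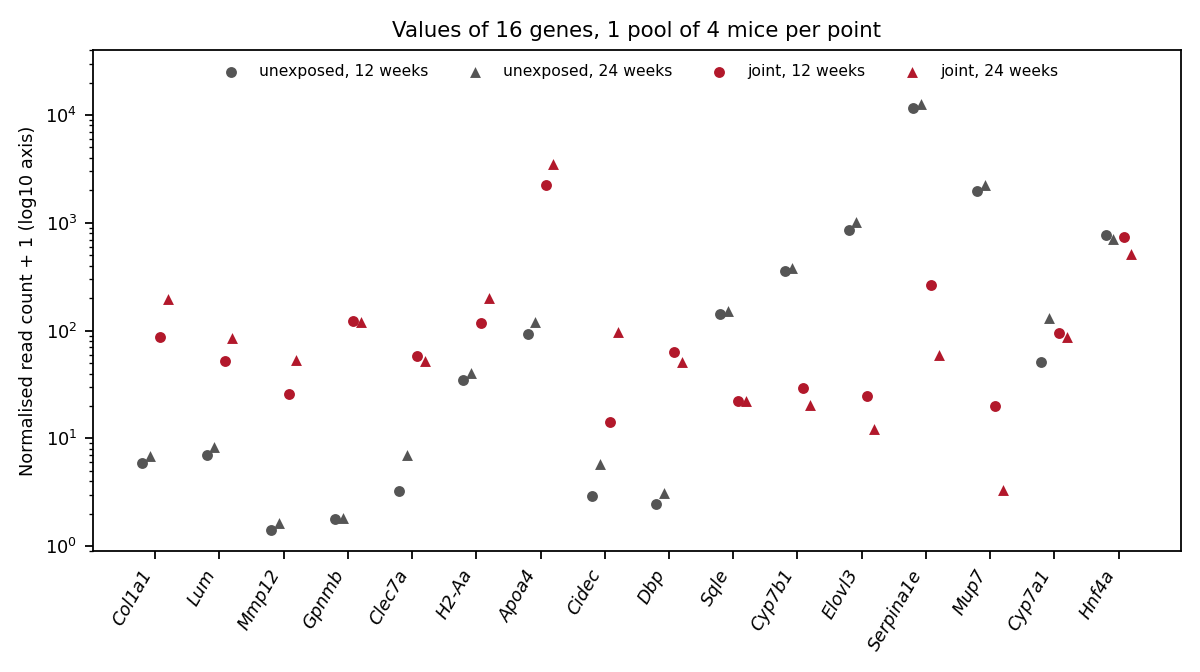
Normalised read counts, on a log10 axis of value + 1, of 16 genes in the 2 unexposed pools (grey) and the 2 joint pools (red), with circles for 12 weeks and triangles for 24 weeks. Col1a1, Gpnmb, Apoa4 and Dbp sit higher in both joint pools, Sqle, Elovl3, Serpina1e and Mup7 sit lower, and Cyp7a1 and Hnf4a overlap.

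A macrophage gene showed the largest rise among the tested genes. Gpnmb, a glycoprotein of lipid-laden macrophages (chromosome 6, 49036546 to 49070929), read 0.799 and 0.823 in the unexposed and 121 and 120.3 in the joint pools, a rise of 6.07 ± 0.37 (adjusted p = 4.29e-05). The beta-glucan receptor Clec7a went from 2.22 and 5.99 to 57.6 and 51, the tetraspanin Cd63 from 3.90 and 6.31 to 57.8 and 79.1, and galectin 3 (Lgals3) from 3.37 and 5.40 to 41.2 and 59.2. In these 4 genes the joint pools of 12 and 24 weeks lay nearer to each other than to either unexposed pool. Of 23 markers of recruited and lipid-associated macrophages 20 rose and 1 fell, with a median of 2.30. Fabp5, a fatty acid binding protein that hepatocytes also make, was the member that fell (-0.93 ± 0.20). The chemokine receptor Cx3cr1 rose by 2.58 ± 0.31 and Ccr2, the receptor that brings monocytes out of the marrow, by 2.37 ± 0.29. Of 29 chemokine and cytokine genes 13 rose and 2 fell, with the ligand Ccl6 going from 5.06 and 5.58 to 32.8 and 30.4. Resident Kupffer cell markers did not move as one. Of 16 members 5 rose and 1 fell. Cd5l, a secreted protein of tissue macrophages, rose by 1.75 ± 0.29, while the lectin Clec4f read 69.4 and 90.8 against 159 and 88.3 and the haemoglobin scavenger receptor Cd163 read 9.36 and 11.4 against 18.8 and 0.632. Cd163 was thus the highest of the 4 pools at 12 weeks and the lowest at 24 weeks of joint exposure. Without the joint pool of 12 weeks 3 Kupffer cell markers were higher and 4 lower, and without the unexposed pools of 12 and of 24 weeks in turn 3 and 3 were higher. The call was not kept for Fabp5 without the unexposed pool of 24 weeks.

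Antigen presentation by class II molecules rose nearly as a whole. Of 9 tested members 8 were called higher and 0 lower, with a median of 1.89. The class II chain H2-Aa read 33.7 and 39.6 in the unexposed and 117 and 201 in the joint pools (rise 2.04 ± 0.18), the invariant chain Cd74 read 89.2 and 105 against 277 and 487, and cathepsin S (Ctss), which trims that chain, rose by 2.15 ± 0.15. Few class I genes were called. Of 17 members 1 was called higher and 1 lower, or 3 higher without the pool of 12 or of 24 weeks labelled normal diet with CCl4. Markers of T and NK cells were low in the 4 pools. Of 10 T and NK cell markers 4 rose and 1 fell, the highest single value among them in the 4 pools being 4.02. The cytotoxic granule gene Nkg7 rose by 1.0 ± 0.23. With quantile normalization 0 of these markers were higher and 1 lower. Without the unexposed pool of 24 weeks 0 of these markers were higher and 0 lower, without that of 12 weeks 2 and 0, and without the joint pool of 12 weeks 1 and 0. Of 10 dendritic cell markers 4 rose and 0 fell, of 8 B and plasma cell markers 1 rose and 1 fell, and of 3 neutrophil markers 1 rose and 0 fell. Among all tested genes 15.7% were called higher and 10.2% lower, and among the 3162 with the lowest mean values 26.2% and 3.10%. With so few members, these counts and those of T and NK cells do not set the lists apart. Dendritic cell calls numbered 2 and neutrophil calls 0 without the unexposed pool of 24 weeks, and 3 B cell markers were lower without that of 12 weeks. Irf8, a transcription factor of dendritic cells and macrophages, rose by 1.34 ± 0.17. Of 32 lysosomal genes 13 rose and 2 fell, or 6 and 0 without the unexposed pool of 24 weeks, with the osteoclast and macrophage protease cathepsin K (Ctsk) up by 2.33 ± 0.33. A call was lost for Nkg7 without the unexposed pool of 24 weeks.

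Vascular, biliary and fetal genes rose to differing degrees. Of 29 endothelial genes 13 rose and 0 fell, or 5 rose without the unexposed pool of 24 weeks. Cd34, which marks capillaries more than healthy sinusoids, went from 1.95 and 1.65 to 5.65 and 12.5 (rise 1.76 ± 0.27) and von Willebrand factor (Vwf) rose by 1.14 ± 0.19. The sinusoidal marker Lyve1 was called higher as well, so the rises were not confined to capillary markers. Of 19 bile duct and progenitor markers 9 rose and 0 fell. Their median change was 0.57 at 12 weeks and 2.22 at 24 weeks. Osteopontin (Spp1), made by duct cells and macrophages, read 49.9 and 37.3 in the unexposed and 121 and 524 in the joint pools, and the epithelial adhesion gene Epcam read 1.38 and 1.01 against 2.69 and 18.8. In both genes the joint pool of 24 weeks stood well above the other 3 pools. The count of biliary calls was 0 without the unexposed pool of 24 weeks, 4 without the joint pool of 24 weeks, 16 without that of 12 weeks and 5 with quantile normalization. Among markers of fetal liver and hepatocellular carcinoma, 14 of 21 rose and 1 fell. Ly6d, a lipid-anchored surface protein, went from 1.06 and 1.56 to 51.3 and 106 (rise 5.03 ± 0.20, adjusted p = 1.78e-05), the desaturase Scd2 rose by 2.63 ± 0.20 and alpha-fetoprotein (Afp) went from 1.46 and 2.33 to 11.4 and 3.48 (rise 1.38 ± 0.38). The trefoil peptide Tff3 was the member that fell, from 22.3 and 36.3 to 1.54 and 1.98. No call remained for Spp1 without the unexposed pool of 24 weeks, Epcam without the unexposed pool of 24 weeks or the joint pool of 24 weeks and Afp without the unexposed pool of 12 weeks or the pool of 12 weeks labelled Western diet with oil or the joint pool of 12 weeks or the pool of 24 weeks labelled Western diet with oil.

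Genes of fat storage and uptake, of fat synthesis and of fat oxidation each rose in part. Of 23 genes of lipid droplets and lipid uptake 10 rose and 1 fell. Cidec, which fuses droplets, read 1.91 and 4.76 in the unexposed and 13.1 and 95.3 in the joint pools (rise 3.17 ± 0.56, adjusted p = 0.00451), so the joint pool of 12 weeks was the lower of the pair. The fatty acid transporter Cd36 went from 49.5 and 66.7 to 205 and 291 and lipoprotein lipase (Lpl) from 50.4 and 41.5 to 195 and 276. Fitm1, a droplet-forming protein, fell by 2.22 ± 0.40. Plin2, which coats droplets, read 570.5 and 504 against 449 and 696, with overlap. The apolipoprotein gene Apoa4, made in liver when triglyceride accumulates (chromosome 9, 46240696 to 46243459), went from 91.2 and 119 to 2221 and 3512 (rise 4.73 ± 0.22, adjusted p = 2.5e-05). Mfsd2a, a transporter of lysophospholipids that hepatocytes induce on fasting, went from 8.65 and 34.6 to 196 and 196, and the sterol exporter Abcg1 rose by 1.95 ± 0.20. Of 22 genes of lipogenesis and triglyceride synthesis 8 rose and 2 fell, with the desaturase Fads2 up by 1.39 ± 0.17, the elongase Elovl6 up by 1.20 ± 0.14 and the acetate-activating enzyme Acss2 down (-1.60 ± 0.13). Stearoyl-CoA desaturase 1 (Scd1) took 1.16 and 1.16% of reads in the unexposed and 2.15 and 3.68% in the joint pools and was not called (difference 1.0 ± 0.37, adjusted p = 0.0783). Of 27 genes of fatty acid oxidation 9 rose and 0 fell, among them the omega-hydroxylase Cyp4a10 (1.54 ± 0.18), the carnitine transferase Cpt1a (1.11 ± 0.14) and their regulator Ppara (0.87 ± 0.13). The risen members numbered 6 for droplets and uptake, 5 for lipogenesis and 5 for oxidation without the unexposed pool of 24 weeks. The call ended for Fitm1 without the unexposed pool of 24 weeks.

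Cholesterol synthesis fell along nearly the whole pathway. Of 26 tested members 23 were called lower and 0 higher, with a median of -1.49 and from 21 to 23 of them lower whichever pool was left out. HMG-CoA synthase (Hmgcs1), an early enzyme of the pathway, read 626 and 584 in the unexposed and 140.5 and 150.0 in the joint pools, a change of -2.05 ± 0.16. Isopentenyl diphosphate isomerase (Idi1) went from 76.1 and 97.8 to 10.1 and 6.38, squalene epoxidase (Sqle) from 142 and 151 to 21.4 and 21.3, and lanosterol demethylase (Cyp51) from 296 and 264 to 46.8 and 43.3. The 2 pools of each group lay close to each other in Sqle and Cyp51. In no member called lower did the 2 groups overlap, but the same holds for 3268 of the 3278 called genes. Srebf2, which encodes the regulator SREBP2, changed by -0.49 ± 0.12, and the sterol sensor gene Insig1 by -1.32 ± 0.14. Of the genes named here, the call was lost for Srebf2 without any 1 pool other than the joint pool of 24 weeks or the pool of 12 weeks labelled normal diet with CCl4 or the pool of 24 weeks labelled normal diet with CCl4.

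SREBP proteins bind a sterol response element, and 1 stretch of sequence is shown because Hmgcs1 carries an exact copy of it. The 9 letters TCACCCCAC were searched on both strands in the 250 bases before the start site of each gene, in RefSeq promoters of GRCm38.p6 that matched 9574 of the tested genes. They occurred in 0.554% of all these promoters, in 0.138% of those of genes called higher and in 0.809% of those of genes called lower. Hmgcs1 was the 1 gene to hold it among the 18 sterol synthesis genes that had a promoter. In the line that follows, the element is in capitals and lies in the stretch chr13:119690184-119690252 on the plus strand.
Hmgcs1: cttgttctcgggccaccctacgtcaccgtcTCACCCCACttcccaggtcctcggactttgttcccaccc

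Bile acid genes fell in part. Of 23 members 2 rose and 9 fell. Cyp7b1, the oxysterol hydroxylase of the alternative route, read 356 and 379 in the unexposed and 28.2 and 19.3 in the joint pools (change -3.92 ± 0.31, adjusted p = 0.000143), and Cyp8b1, which sets the share of cholic acid, read 409.6 and 473 against 114 and 76.5. Cyp7a1, the rate-limiting enzyme of the classical route, read 49.8 and 131 against 93.1 and 86.6 and overlapped (adjusted p = 0.835). The uptake transporter Slco1a1 went from 593 and 455 to 39.3 and 7.53, and the basolateral exporter Abcc4 rose by 1.19 ± 0.20.

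Genes that male liver expresses above female liver fell nearly as a whole, and genes of the opposite bias moved in both directions. The labels do not give the sex of these mice. Of 26 male-biased genes 24 were called lower and 0 higher, with a median of -2.16, and of 28 female-biased genes 17 passed the filter on low values, 9 called higher and 3 lower. Risen female-biased genes numbered from 6 to 11 as single pools were left out. Cyp2b9 read under 1 in both unexposed pools, and the 2 joint pools were enough to carry it past the filter. For genes this low in unexposed liver the filter favours rises over falls. The fatty acid elongase Elovl3 read 850.0 and 1009.8 in the unexposed and 23.5 and 11.1 in the joint pools (change -5.75 ± 0.24, adjusted p = 1.96e-05), and the steroid dehydrogenase Hsd3b5 read 290.0 and 207 against 2.92 and 0.230. On the female-biased side the hydroxylase Cyp2a4 went from 1.29 and 0.0915 to 24.1 and 121 (rise 5.13 ± 0.59, adjusted p = 0.000643), Cyp2b9 went from 0.133 and 0.640 to 12.3 and 8.30, and the neurotrophin receptor Ntrk2 rose by 2.48 ± 0.28. The female-biased Cyp2c40, Cyp2c69 and the prolactin receptor gene Prlr were the members that fell. Major urinary proteins, pheromone carriers that male mice secrete in bulk, fell in 12 of 13 tested genes. Mup7 and Mup1 belong to the male-biased list too, so the counts of the 2 lists are not separate. Mup7 went from 1962 and 2233 to 18.8 and 2.30, the largest fall among the tested genes (-8.02 ± 1.22, adjusted p = 0.0023), and Mup21 went from 325 and 301 to 9.33 and 9.74. Mup3 took 0.871 and 0.845% of reads in the unexposed and 0.457 and 0.160% in the joint pools, and the antitrypsin gene Serpina1e took 1.06 and 1.15% and 0.0267 and 0.00696%. Mup, Serpina1, Cyp2a and Cyp2c genes each form a family of near-identical copies, so which member changed is uncertain. Of 20 genes of the growth hormone and IGF axis 5 rose and 5 fell, with the IGF carrier Igfals at -1.22 ± 0.20, the epidermal growth factor receptor Egfr at -1.22 ± 0.20 and the leptin receptor Lepr up by 2.17 ± 0.38. Among all tested genes 15.7% were called higher and 10.2% lower, and among the 3162 with the highest mean values 7.15% and 23.1%. The growth hormone and IGF counts do not clearly set that list apart. Rises in that list numbered 2 without the unexposed pool of 24 weeks. The call did not hold for Lepr without the unexposed pool of 24 weeks.

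**Figure D3:**
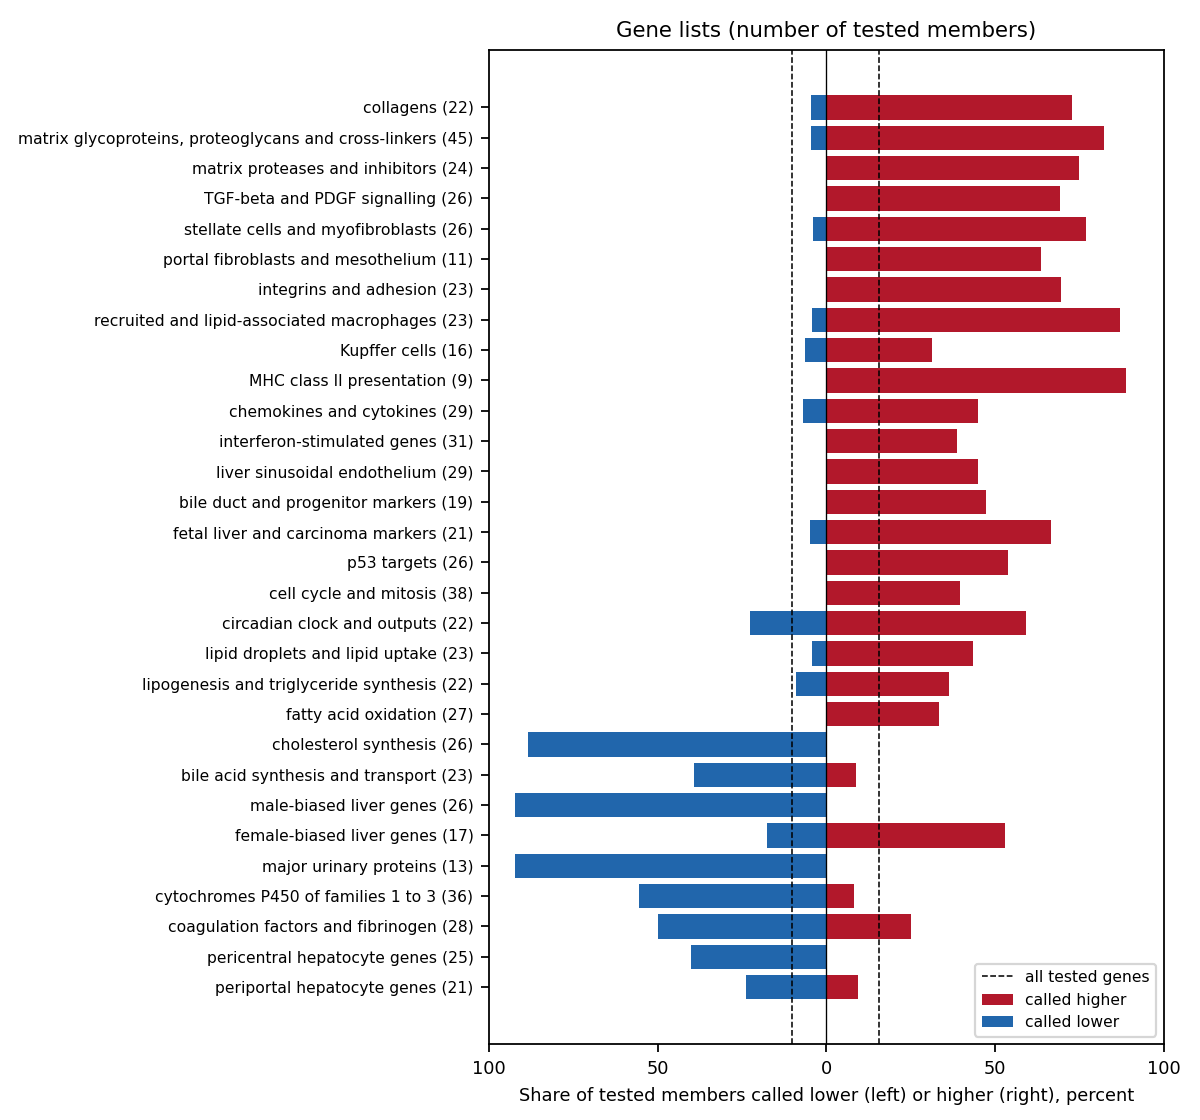
Share of the tested members of each of 30 gene lists that were called higher (red, to the right) or lower (blue, to the left) in the joint pools, in percent, with dashed lines at 15.7% and 10.2% for all tested genes. Recruited macrophages, class II presentation and matrix lists reach furthest right, and male-biased, urinary protein and cholesterol synthesis lists reach furthest left.

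Cytochromes P450 of drug metabolism fell more often than they rose. Among 36 cytochromes P450 of the first 3 families, 20 fell and 3 rose, with a median of -0.75, and without the unexposed pool of 24 weeks 12 fell. Cyp2c29 read 2132 and 2259 in the unexposed and 254 and 179.7 in the joint pools (change -3.36 ± 0.20, adjusted p = 4.04e-05), Cyp2c37 read 355 and 395 against 65.3 and 27.2, and Cyp1a2, a pericentral oxidase of caffeine and arylamines, read 803 and 655 against 262 and 121. Cyp2e1, which activates CCl4, read 6614 and 5765 against 5042 and 4067. Both joint values of Cyp2e1 lay below both unexposed values, yet the difference of -0.45 ± 0.24 was not called (adjusted p = 0.189), and it turned to 0.25 with quantile normalization. The members that rose were Cyp2a4, Cyp2a22 and Cyp2b9. Of these 36 cytochromes 16 fell both with scaling to library totals and with quantile normalization, and 6 fell when the tumours joined the fit. Of 24 glucuronosyl and sulfo transferases 1 rose and 12 fell, or 4 fell without the unexposed and 7 without the joint pool of 24 weeks. Glutathione transferases and targets of the oxidant sensor NRF2 moved in both directions, with 7 of 34 higher and 10 lower. Among all tested genes 15.7% were called higher and 10.2% lower, and among the 3162 with the highest mean values 7.15% and 23.1%. These counts therefore do not clearly set the list apart. The carbonyl reductase Cbr3 rose by 2.38 ± 0.21 and the transferase Gstp1, which male liver favours, went from 1151 and 1252 to 362 and 206 (change -2.13 ± 0.22). The median of that list was -0.25, and it turned to 0.02 both with scaling to library totals and with quantile normalization. The former gave 12 higher and 6 lower members and the latter 7 and 6. Of its members 4 were higher without the unexposed pool of 12 weeks or the joint pool of 24 weeks, and without the unexposed pool of 24 weeks 6 were lower.

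Hepatocyte genes near the central vein and those near the portal tract were compared as 2 lists. Of 25 pericentral genes 0 rose and 10 fell, and of 21 periportal genes 2 rose and 5 fell. Among all tested genes 15.7% were called higher and 10.2% lower. Among the 3162 with the highest mean values the shares were 7.15% and 23.1%. The periportal counts lie close to these latter shares, so they do not set that list apart. Ornithine aminotransferase (Oat) read 1024 and 1187 in the unexposed and 65.6 and 175 in the joint pools, the glutamate transporter Slc1a2 read 139.6 and 137 against 14.9 and 22.5, and the glutamine synthetase gene Glul, expressed in the last cells before the vein, read 866 and 809 against 238 and 369 (change -1.49 ± 0.20). In all 3 genes the joint pools lay below the unexposed pools at both durations, and the groups did not overlap in 3268 of the 3278 called genes. With scaling to library totals 6 periportal genes were higher and 3 lower, and with quantile normalization 6 and 2. Periportal calls were 1 lower without the unexposed pool of 24 weeks, 2 without the joint pool of 24 weeks and 9 without that of 12 weeks. Of 30 transcription factors of hepatocytes 2 rose and 2 fell, or 7 and 2 with scaling to library totals. Hnf4a, a master regulator of the lineage, read 770.2 and 709 against 733 and 515, with overlap (adjusted p = 0.207). The xenobiotic receptor gene Nr1i3 was among those that fell, from 57.9 and 60.7 to 28 and 24.6 (change -1.15 ± 0.15, adjusted p = 0.0012). Of 30 genes of the urea cycle and amino acid breakdown 0 rose and 10 fell, with the glyoxylate transaminase Agxt at -1.28 ± 0.17 and cystathionine synthase (Cbs) at -1.17 ± 0.12, while the first urea cycle enzyme, Cps1, read 4651 and 3883 against 4596 and 2846. Without either 24-week pool of the comparison, 3 of the amino acid genes fell, and without the joint pool of 12 weeks 16 did. With scaling to library totals 2 of them were higher and 5 lower, and with quantile normalization 2 and 6. Nuclear genes of the respiratory chain had 11 of 38 members lower and 0 higher, but this count ran from 0 to 24 as single pools were left out and was 0 with scaling to library totals. Of 30 genes of glucose and glycogen metabolism 12 rose and 4 fell, with the muscle-type pyruvate kinase gene Pkm up by 1.58 ± 0.17 and the glycogen targeting subunit Ppp1r3c at -1.75 ± 0.24, and the falls numbered 1 without either 24-week pool of the comparison.

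Genes for plasma proteins and their receptors divided. Fibrinogen alpha (Fga) read 7337 and 6253 in the unexposed and 3562 and 2999 in the joint pools (change -1.05 ± 0.20), and Fgb and Fgg changed by -1.04 ± 0.19 and -1.06 ± 0.19. Of 28 coagulation genes 14 fell and 7 rose, the latter including tissue plasminogen activator (Plat, 2.48 ± 0.28) and thrombomodulin (Thbd, 1.39 ± 0.20). Among 30 complement genes 14 fell, with the terminal pathway chain C8b at -2.18 ± 0.33, and 7 rose, with C1qb, made by macrophages, at 1.70 ± 0.15 and the receptor C3ar1 at 2.13 ± 0.17. The central component C3 read 8037 and 7562 against 7492 and 6467 and was not called. Falls numbered 2 and 8 in these 2 lists without the unexposed pool of 24 weeks, 5 and 7 without the joint pool of 24 weeks, and 7 and 9 with scaling to library totals, where 8 coagulation genes rose. Rises numbered 3 and 4 without the unexposed pool of 24 weeks, and those of coagulation 4 without the joint pool of 24 weeks or either pool labelled Western diet with oil. Acute phase genes split, with 9 of 26 higher and 7 lower, or 3 lower without either 24-week pool of the comparison. Lipocalin 2 (Lcn2), an iron-scavenging protein of injured epithelium, went from 4.13 and 12.6 to 35.6 and 168, metallothionein 2 (Mt2) from 5.32 and 12.6 to 58.6 and 48.6, and the interleukin 1 antagonist Il1rn rose by 2.45 ± 0.22. The iron hormone gene Hamp read 327 and 438 against 254 and 169 (change -0.86 ± 0.20). Its paralogue Hamp2 went the other way, from 22.9 and 11.3 to 208 and 45.4 (rise 2.52 ± 0.30). Adropin (Enho), a secreted metabolic peptide, went from 28.4 and 29.6 to 1.65 and 1.32, and the selenium-binding protein Selenbp2 from 719 and 769 to 74.7 and 40.7. Albumin (Alb) took 10.4 and 9.59% of reads in the unexposed and 8.58 and 6.47% in the joint pools and was not called (adjusted p = 0.402). These shares are of reads and are not corrected for gene length. The call was not kept for Fga and Fgb without the unexposed pool of 24 weeks and Hamp without the unexposed pool of 24 weeks or the joint pool of 24 weeks.

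Genes of the circadian clock moved in both directions. Of 22 tested members 13 were called higher and 5 lower in the joint pools. The output factor Dbp (chromosome 7, 45705088 to 45710203) read 1.46 and 2.10 in the unexposed and 62.4 and 50.1 in the joint pools (rise 4.36 ± 0.21, adjusted p = 2.5e-05), the period gene Per3 went from 0.532 and 2.01 to 28.7 and 18.2, and the deubiquitinase gene Usp2 from 3.19 and 8.55 to 68.5 and 44.7. Arntl, which encodes the activator BMAL1, went from 33.5 and 30.4 to 8.87 and 7.93 (change -1.81 ± 0.17), and its partners Clock and Npas2 changed by -0.97 ± 0.15 and -1.58 ± 0.30. The groups did not overlap in these 6 genes, which holds for 3268 of the 3278 called genes. The repressor gene Nr1d1 read 89.1 and 76.8 against 81 and 90.8, with overlap, whereas its relative Nr1d2 rose by 0.97 ± 0.13. Dbp stood above the unexposed pools in the single exposures too, at 63.6 and 42.2 in the pools labelled normal diet with CCl4 and 55.9 and 38.4 in those labelled Western diet with oil. The labels give no hour at which livers were taken, and the part of that hour in these differences was not tested.

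BMAL1 and CLOCK bind the E-box CACGTG, which reads the same on both strands, and the promoters of the clock genes that hold it are shown. It occurred in 8.49% of all promoters, in 7.51% of those of genes called higher and in 8.09% of those of genes called lower, and in 5 of 18 clock genes with a promoter in the table. The match nearest the start site is in capitals. Start sites are those of RefSeq, with 1 promoter taken per gene. By GENCODE coordinates the stretches of Per1 (gene at 69095217 to 69109960) and Tef (81802421 to 81826863) lie inside the gene. Those of Bhlhe41 and Ciart overlap the gene in part. Per1, Tef, Bhlhe41 and Ciart were called higher (1.53 ± 0.16, 1.71 ± 0.13, 1.80 ± 0.27 and 2.88 ± 0.37) and Cry1 was called lower (-1.20 ± 0.22), so that genes with the element in the searched stretch moved in opposite directions. The stretches lie at chr11:69098753-69098818 on the plus strand, chr15:81802516-81802581 on the plus strand, chr6:145865538-145865603 on the minus strand, chr3:95882237-95882302 on the minus strand and chr10:85185079-85185144 on the minus strand, in the order of the lines. A call was lost for Cry1 without the unexposed pool of 24 weeks.
Per1: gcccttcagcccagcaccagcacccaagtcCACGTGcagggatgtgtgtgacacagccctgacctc
Tef: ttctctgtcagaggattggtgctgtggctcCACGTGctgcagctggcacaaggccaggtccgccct
Bhlhe41: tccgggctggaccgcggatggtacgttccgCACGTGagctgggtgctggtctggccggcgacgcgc
Ciart: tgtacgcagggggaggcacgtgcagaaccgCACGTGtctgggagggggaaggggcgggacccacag
Cry1: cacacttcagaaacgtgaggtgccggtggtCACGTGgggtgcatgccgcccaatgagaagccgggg

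Targets of the tumour suppressor p53 rose in 14 of 26 members and fell in 0. Eda2r, a receptor of the tumour necrosis factor family, read 0.266 and 0.366 in the unexposed and 14.4 and 8.13 in the joint pools (rise 3.17 ± 0.25, adjusted p = 0.000143), Phlda3, an inhibitor of AKT, went from 1.69 and 1.10 to 12.4 and 9.54, and the cell cycle inhibitor Cdkn1a went from 15.4 and 39.6 to 76.8 and 68.8 (rise 1.51 ± 0.31). Of these targets 9 rose without the unexposed pool of 12 weeks. In Eda2r and Phlda3 the joint pool of 12 weeks was the higher one. Of 30 genes of the integrated and endoplasmic reticulum stress responses 5 rose and 12 fell, with the injury-induced factor Atf3 up by 2.30 ± 0.26, asparagine synthetase (Asns) at -1.71 ± 0.30 and the chaperone partner Sdf2l1 at -1.40 ± 0.34. Rises in that list numbered 3 without the unexposed pool of 12 weeks, 1 without that of 24 weeks and 2 without the joint pool of 24 weeks. Its falls numbered 2 without the unexposed and 3 without the joint pool of 24 weeks, and 7 without the pool of 12 or of 24 weeks labelled Western diet with oil. Cell cycle genes rose in 15 of 38 members and fell in 0, at low values. The proliferation marker Mki67 went from 1.06 and 3.29 to 5.38 and 9.91 (rise 1.49 ± 0.31) and cyclin D1 (Ccnd1) from 24.4 and 22.4 to 48.1 and 126. Proliferating cell nuclear antigen (Pcna) read 24.5 and 24.8 against 24.5 and 26.5, with overlap. The count of cell cycle calls was 4, 5 and 3 without the unexposed pools of 12 and 24 weeks and the joint pool of 24 weeks in turn, and 4 with quantile normalization. Of 32 keratin and cytoskeleton genes 13 rose and 2 fell, with the actin binder Tagln2 up by 1.84 ± 0.23 and the tubulin Tuba4a at -1.65 ± 0.12, and annexin 2 (Anxa2) went from 11.2 and 13.5 to 43.3 and 131. Without the unexposed pool of 24 weeks 8 of that list rose. No call remained for Cdkn1a without the unexposed pool of 12 weeks, Sdf2l1 and Ccnd1 without the unexposed pool of 24 weeks or the joint pool of 24 weeks and Mki67 without the unexposed pool of 12 weeks or the joint pool of 24 weeks.

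Interferon-stimulated genes rose in 12 of 31 members and fell in 0, with a median of 0.66. The oligoadenylate synthetase genes Oas3 and Oas1a, sensors of double-stranded RNA, went from 0.976 and 0.915 to 6.03 and 6.64 for Oas3 and from 1.42 and 1.92 to 6.57 and 8.24 for Oas1a, rises of 1.91 ± 0.19 and 1.65 ± 0.27. Ifit3, which binds viral RNA with its relatives, rose by 1.17 ± 0.33. Other members did not pass, among them the antiviral tether Bst2, at 171 and 197 against 239 and 202. Without either 24-week pool of the comparison 7 members were called higher. The interferon response element, searched as GAAANNGAA on both strands with N for any base, occurred in 12 of 21 of these genes with a promoter in the table and in 6.49% of all promoters. It lay before 7.17% of genes called higher and 5.56% of those called lower. Bst2, which was not called, carries it as well. The 3 promoters shown belong to members that rose, with the match nearest the start site in capitals, at chr5:120777690-120777758 on the minus strand, chr19:34583397-34583465 on the plus strand and chr5:120907526-120907569 on the minus strand. The call ended for Ifit3 without the unexposed pool of 24 weeks or the joint pool of 24 weeks.
Oas3: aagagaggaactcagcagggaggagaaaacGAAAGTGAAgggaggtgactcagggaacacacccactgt
Ifit3: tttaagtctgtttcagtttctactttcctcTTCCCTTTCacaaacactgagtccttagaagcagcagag
Oas1a: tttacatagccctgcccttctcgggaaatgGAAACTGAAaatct

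Other motifs among the 12 searched are described by their shares. The site GAGGAAGT of the leukocyte factor PU.1 occurred in 2.44% of all promoters, in 4.59% (35 of 762) of those of genes called at least 2-fold higher and in 0.585% (1 of 171) of those called at least 2-fold lower. For the sterol response element the shares of the same 2 groups were 0.131% and 2.92%. The AP-1 site TGANTCA of FOS and JUN proteins occurred in 4.56%, 7.48% and 9.94% in the same order, and the TATA box TATAAA in 6.70%, 10.1% and 12.3%. These shares describe letters in a window, and they were not tested. Mmp12, C1qc, a chain of complement C1q, and Spp1 rose and carry the PU.1 letters, on either strand, in the stretches chr9:7344279-7344346 on the plus strand, chr4:136893072-136893139 on the minus strand and chr5:104434968-104435035 on the plus strand, with the match in capitals. They are shown because macrophages use this factor. Mmp7, which was called higher, and the recruited macrophage marker Ly6c2, which was not called, carry the letters too and are not shown. Of the genes named here, the call was lost for Spp1 and Mmp7 without the unexposed pool of 24 weeks.
Mmp12: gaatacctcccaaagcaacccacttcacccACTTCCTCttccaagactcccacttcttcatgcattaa
C1qc: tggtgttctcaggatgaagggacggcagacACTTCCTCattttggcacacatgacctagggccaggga
Spp1: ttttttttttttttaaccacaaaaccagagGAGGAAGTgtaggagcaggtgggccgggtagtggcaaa

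Changes at the 2 durations went the same way in all 3278 called genes and in 9245 of the 12648 tested genes. A call sets the mean of both changes against the spread between durations, so it favours genes whose changes agree. The agreement among called genes is therefore no separate support. In the pair of 12 weeks 908 genes were at least 2-fold higher and 235 lower, and in the pair of 24 weeks 1453 and 414. In both pairs 671 were higher and 157 lower. Across the tested genes the changes of the 2 pairs had a Pearson correlation of 0.756 and a Spearman correlation of 0.650, a description over 12648 genes of 4 libraries, and genes are not independent replicates. The median change of genes called higher was 0.90 at 12 and 1.15 at 24 weeks, and that of genes called lower -0.52 and -0.74. A test of the difference between the changes of 24 and 12 weeks called 0 genes in limma, with 1528 at an unadjusted p under 0.05 and a lowest adjusted p of 0.0863. That test had 1 residual degree of freedom, and no other tool was run for it. Among genes with the widest difference between durations, ubiquitin B (Ubb) read 30.9 and 2.56 in the unexposed and 20.9 and 21 in the joint pools, so that the unexposed pool of 24 weeks was the low one. The chaperone-like gene Creld2 read 48.2 and 141 against 54 and 35.1, with the unexposed pool of 24 weeks the high one, and the sorting receptor gene Sort1, which was called lower, read 40.2 and 21.7 against 7.49 and 19.4. Spp1 and Mup7 also stood among them. The call did not hold for Sort1 without any 1 pool other than the unexposed pool of 24 weeks or the joint pool of 24 weeks.

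**Figure D4:**
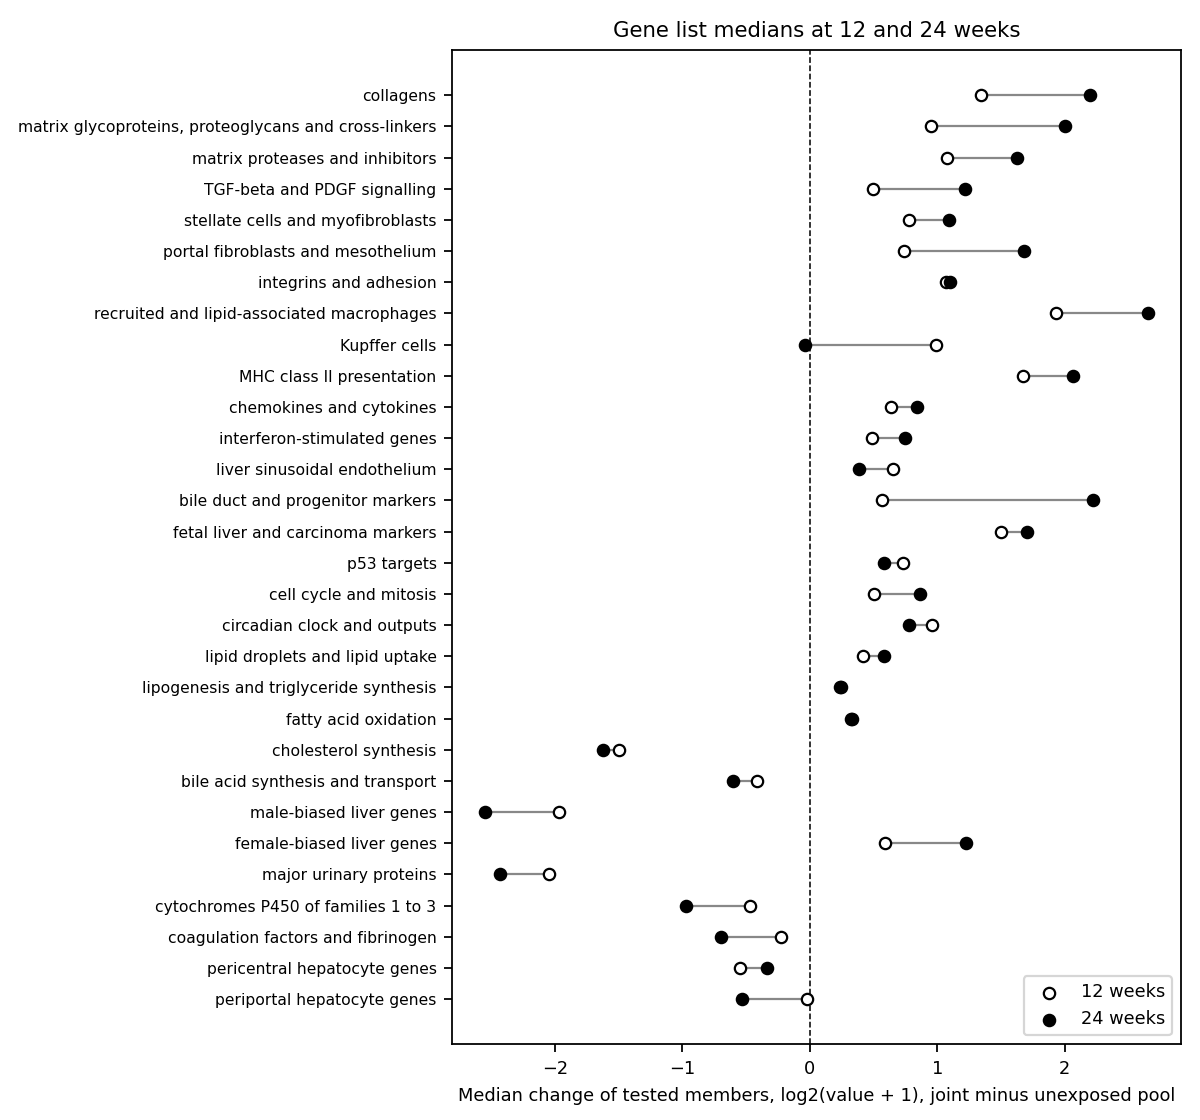
Median change in log2(value + 1) of the tested members of each of 30 gene lists at 12 weeks (open circles) and 24 weeks (filled circles), joint minus unexposed pool, with a dashed line at 0. Bile duct markers move furthest between the durations, from 0.57 to 2.22, while cholesterol synthesis reads -1.50 and -1.62.

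Values in the single exposures, which share the unexposed pools with the joint comparison, are set side by side for 6 genes. Gpnmb read 32.3 and 98.4 in the pools labelled normal diet with CCl4, 33.2 and 27.8 in those labelled Western diet with oil and 121 and 120.3 in the joint pools. Col1a1 read 67.2 and 106, 33.2 and 28.8 and 86 and 196 in the same order. For both genes the single exposures lay between the unexposed and the joint pool of the same duration. Apoa4 read 3307 and 5345, 414 and 349 and 2221 and 3512, and Sqle 8.11 and 6.86, 106 and 139 and 21.4 and 21.3, so that the pools labelled normal diet with CCl4 went past the joint pools in both. Oat read 1469 and 605, 217 and 307 and 65.6 and 175, and Glul 1373 and 1185, 387 and 474 and 238 and 369. Here the pools labelled Western diet with oil were the ones nearer to the joint pools.

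**Figure D5:**
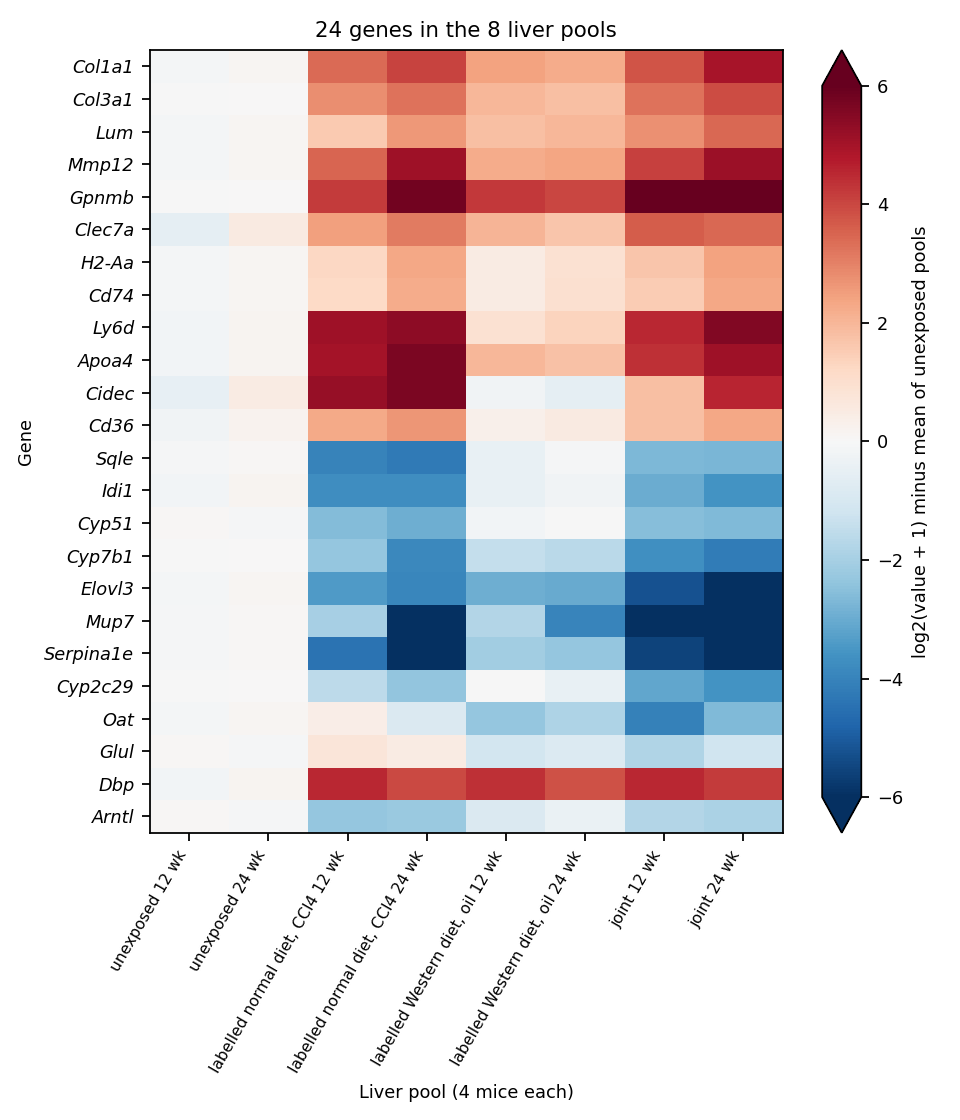
Values of 24 genes in the 8 liver pools as log2(value + 1) minus the mean of the 2 unexposed pools, red for higher and blue for lower, with columns ordered by group and duration. Columns of the joint pools are the 2 at the right, and the sterol genes are low there and in the pools labelled normal diet with CCl4.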

How the data were processed

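RNA sequencing of mouse liver was aligned by the authors with STAR to mm10, per the submitters' processing notes. For the counter, the annotation and the scaling, nothing is given in the sources used here. Values deposited by the authors are a signal, a normalised read count: in each library they are whole reads times 1 constant, whole for at least 99.99% of values within 0.01 of a read. Genes that reached a value of 1 in 2 or more of the 10 libraries entered limma 3.58.1 in R 4.3.3, on log2(value + 1), with empirical Bayes and a mean-variance trend, over 8 liver pools with 1 mean for each of the 4 groups and a duration term, which left 3 residual degrees of freedom. Benjamini-Hochberg adjustment ran over all 12648 genes, with 0.05 as the threshold. Genes were matched to gene lists by symbol. Coordinates come from GENCODE release M21 on GRCm38, which is mm10. Promoters of 250 bases are RefSeq's for GRCm38.p6, with the first one listed taken for each gene. The fitting scripts were tested on simulated data.

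The comparison, its members and the gene lists were chosen with earlier results of these data known. Genes named were the 15 largest rises and falls at or above the median level, up to 4 called and 2 uncalled members of each list, the 10 with the widest difference between durations, the genes with the highest or most changed share of reads and a few standing genes (Cyp2e1, Alb, Col1a1, Acta2, Mki67, Cyp7a1, Afp and Hnf4a). Of these the text gives a part. Glul, Col27a1, Fabp5, Clec4f, Cd163, Hmgcs1, Srebf2, Insig1, Egfr, Cyp1a2, Fgb, Fgg, Arntl, Clock, Npas2, Nr1d2, Per1, Tef, Bhlhe41, Cry1, Ifit3, C1qc and the genes of the closing section were chosen after their values were seen. Alternatives changed the pseudocount, low-value filter, scaling, variance prior, duration term and libraries fitted, and included count tests on recovered whole reads, in which edgeR 4.0.16 called 3256 genes and DESeq2 1.42.0 called 3324.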

Additional observations from a re-analysis of the deposited data

How the results depend on the processing

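The count of 3278 genes called was 1887 with no filter on low values, 2155 with a minimum value of 10, 796 when the 2 tumours joined the fit as a group and 2071 when only the 4 pools compared were fitted. Leaving out 1 pool at a time gave from 1214 (without the unexposed pool of 24 weeks) to 3136 genes, and 1669 without the joint pool of 24 weeks. Under the other alternatives the count stayed within 1.5 times, from 2489 with array weights to 3605 with scaling to library totals, an alternative chosen after seeing the data. Whichever pool was left out, 1036 of the called genes kept their call, and 630 kept it under every alternative that tested them, 500 higher and 130 lower. None reversed with a call. In the test of the difference between durations the count was 0 in each of its 4 alternatives. The duration term paired the pools by week, and without it 2771 genes were called. Among the genes named, 143 passed the threshold, and 121 of these kept their call whichever pool was left out and 82 under every alternative. Of them 54 lost it when the tumours joined the fit, 27 with no filter on low values and 8 with quantile normalization. With the tumours 1 class II gene was called higher. With scaling to library totals 17 genes of fatty acid oxidation, 8 Kupffer cell and 4 class I genes were higher. Only genes that had not passed turned direction, and the cause was not tested. With quantile normalization Cyp2e1 read 0.25, C3 0.49, Cps1 0.36 and Hnf4a 0.12, and with scaling to library totals C3 read 0.11, Cps1 0.045 and Hnf4a 0.0114. As single pools were left out, the change ran from -2.43 to 0.43 for Cd163, -0.29 to 0.32 for Fn1, -0.30 to 0.42 for Plin2, -0.41 to 2.49 for Ubb, -0.18 to 0.28 for Nr1d1, -0.028 to 0.12 for Pcna and -0.71 to 1.01 for Cyp7a1. With 1 pool per condition and duration, spread between animals cannot be given, and 356 of the genes called higher read under 1 in both unexposed pools, where few reads set the precision.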

Other observations

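Targets of the growth regulators YAP and TAZ rose in 10 of 24 tested members and fell in 1. Myoferlin (Myof), a membrane repair protein, read 2.66 and 1.97 in the unexposed and 16 and 28.2 in the joint pools (rise 2.76 ± 0.32), and the receptor tyrosine kinase Axl rose by 1.88 ± 0.13. Of these targets 5 rose without the unexposed and 4 without the joint pool of 24 weeks, and 6 with quantile normalization. Of 20 calcium-binding S100 proteins and annexins 7 rose and 1 fell, or 12 and 0 with scaling to library totals, with S100a11 going from 2.57 and 3.34 to 8.91 and 23.7. Of 25 genes of apolipoproteins and lipoprotein handling 6 rose and 4 fell, or 4 and 0 without the unexposed pool of 24 weeks. Among all tested genes 15.7% were called higher and 10.2% lower, so the apolipoprotein counts do not set that list apart. The sterol exporter gene Abcg5 rose by 0.97 ± 0.13 and Apoc2, the activator of lipoprotein lipase, by 1.24 ± 0.13. Of 28 liver hormones and carriers 4 rose and 9 fell, the falls numbering 5 without the unexposed pool of 24 weeks and the rises 2 without the joint pool of 24 weeks. With scaling to library totals 6 of them were higher and 4 lower. The fetuin-B gene Fetub fell by 0.90 ± 0.15.

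Iron genes split, with 4 of 20 higher and 4 lower, or 2 and 1 without the unexposed pool of 24 weeks and 2 and 3 without the joint pool of 12 weeks, and 8 and 1 with scaling to library totals. Among all tested genes 15.7% were called higher and 10.2% lower, and among the 3162 with the highest mean values 7.15% and 23.1%. The iron counts lie near these shares and do not set that list apart. Of erythroid, pancreatic, adipose and muscle markers, 2 passed the filter on low values and 2 were lower, the elastase gene Cela1 at 20.1 and 29.1 against 7.99 and 13.4 and the erythroid haem synthase gene Alas2 at 180.0 and 215 against 159 and 108.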
